A study of Rattus norvegicus with 13 samples.

Results

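The genes described are 10 of transforming growth factor beta (TGF-beta) signalling in rat mammary carcinomas that arose after irradiation. They are the 3 ligands Tgfb1, Tgfb2 and Tgfb3, the 2 receptors Tgfbr1 and Tgfbr2, and 5 genes of matricellular proteins or known targets of the pathway, Postn, Sparc, Thbs2, Tnc and Ccn2. Every probe whose RefSeq accession on the array maps to one of these symbols was taken, which gave 14 probes for 10 of the 13351 genes with a symbol. All 14 passed the filter on dim probes. RNA came from carcinomas of female Sprague-Dawley rats given whole-body 137Cs gamma rays (2 Gy at 0.6 Gy per minute) at 3 weeks of age, before puberty (IR-3W, 4 arrays), from carcinomas of rats given the same dose at 7 weeks, after puberty (IR-7W, 6 arrays), and from mammary tissue of rats that were not irradiated (normal, 3 arrays). Beyond 9 weeks the irradiated rats ate AIN-76A diet with a corn oil content of 23.5%, and palpable tumours were taken at 50 weeks. Normal tissue is described in the labels both as coming from rats 7 weeks old and as age-matched, so its age is not settled, nor is its diet. No carcinomas of rats without irradiation are analysed here, so the comparisons with normal tissue do not separate irradiation from tumour.

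TGF-beta ligands are secreted in a latent form bound to the extracellular matrix and, once released, bind the type II receptor, which activates the type I receptor; this phosphorylates Smad2 and Smad3, which enter the nucleus with Smad4. In the mammary gland the pathway restrains ductal growth of the epithelium, and in tumours it is known for acting on fibroblasts, which then deposit matrix. Matricellular proteins are secreted proteins that tune how cells attach to the matrix rather than build it.

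Levels are given on the log2 scale as the probe's signal relative to the 75th percentile of its array, so 0 marks a probe at that percentile and each unit is a doubling. Differences are first-named minus second-named group, with the standard error (SE) and the adjusted p of a limma fit across all probes kept, two-sided, under the Benjamini-Hochberg procedure and called at 0.05 or below. Levels of different probes are not set against each other, because probes differ in brightness. The 75th percentile signal was between 276.1 and 1242 on carcinoma arrays and between 82.34 and 178.7 on normal arrays, and 57.49 to 70.41% of probes were well above background on carcinoma arrays, against 47.73 to 53.4% on normal arrays. The normal arrays shared a slide and a scan of their own, so scan and tissue cannot be told apart in comparisons with normal tissue. Only 1 slide held both carcinoma groups (IR-3W 1 and 2 with IR-7W 1 and 5). Arrays correlated at 0.878 to 0.961 within IR-3W, 0.928 to 0.968 within IR-7W and 0.963 to 0.977 within normal tissue (Pearson r across probes). All 10 luminal epithelium markers measured, such as keratins 8 and 18, were well above background on every array. Of these only Cldn3 passed in any comparison, lower in IR-3W than in IR-7W (-1.44, adjusted p = 0.03985). Whether the arrays of a group stand for different animals is not given in the labels, and p-values therefore cover only the spread seen among the samples, which may be technical.

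**Figure D1:**
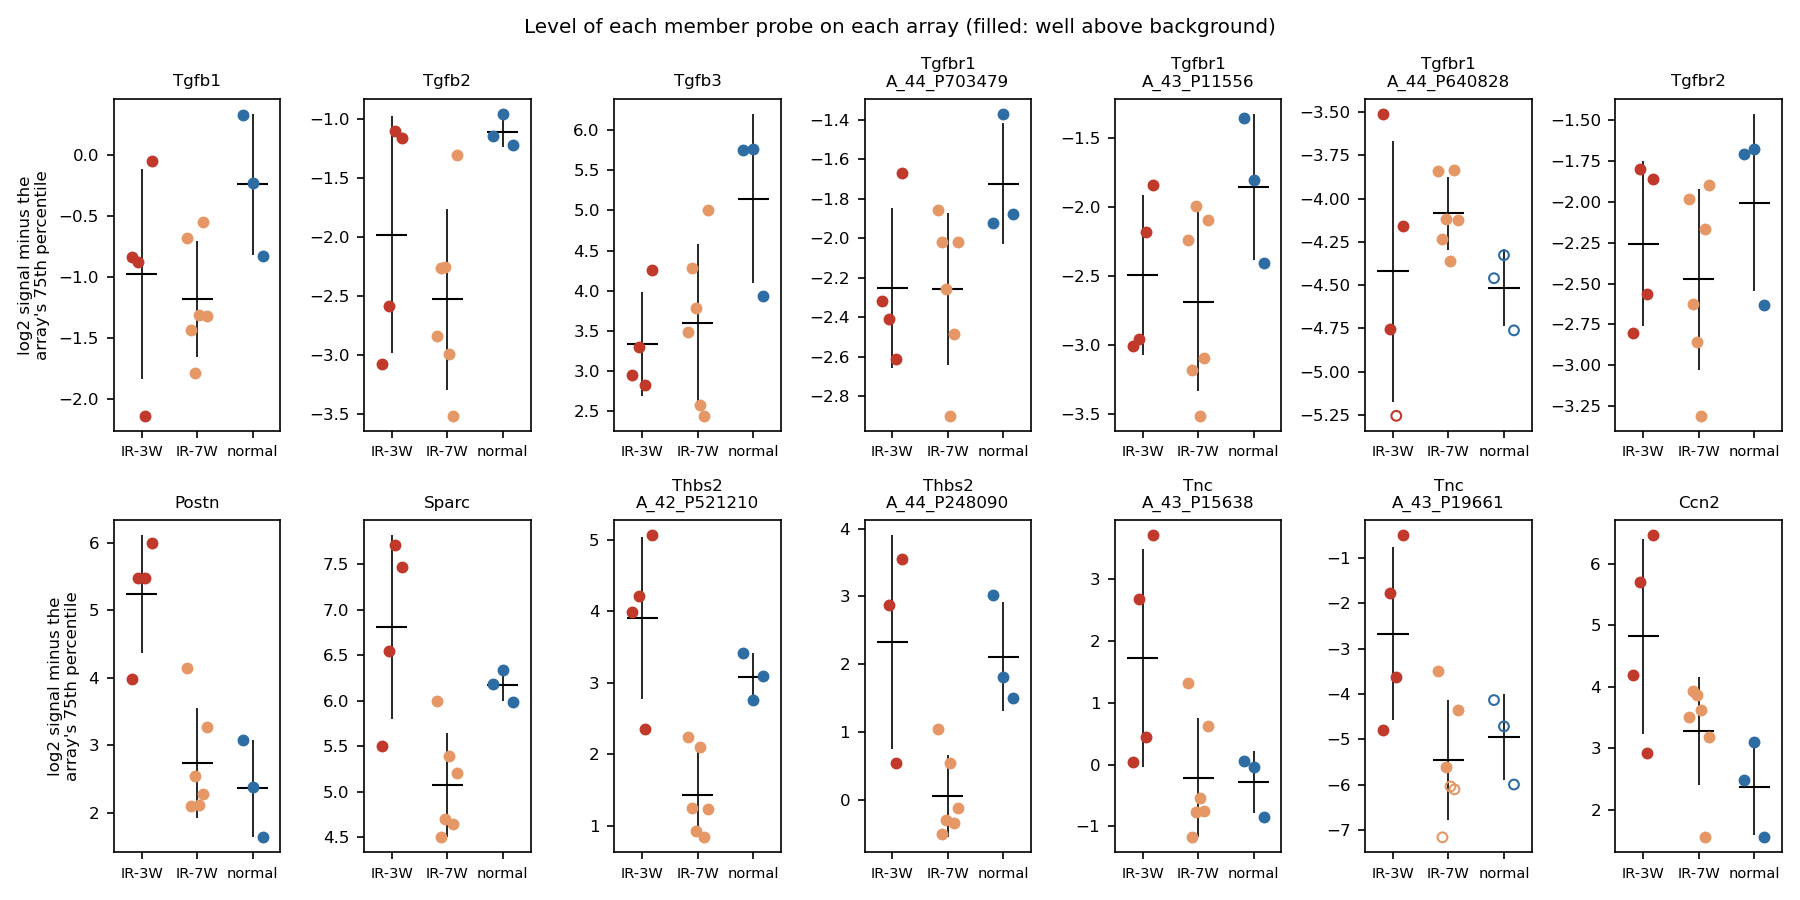
Level of each of the 14 probes on each array (log2 signal relative to the 75th percentile of the array, vertical axes differ between panels) for IR-3W, IR-7W and normal samples; horizontal lines are group means, vertical lines SD, and open circles are not well above background. Postn in IR-3W lies above all normal arrays, and both Thbs2 probes in IR-7W lie below all normal arrays.

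In IR-3W carcinomas Postn was 7.33-fold higher than in normal tissue, and it was the 1 of 14 probes that passed. In IR-7W carcinomas both Thbs2 probes were lower than in normal tissue, by 3.15-fold and 4.16-fold, and no probe passed as higher. Between the carcinoma groups, Postn and 1 Thbs2 probe were higher in IR-3W than in IR-7W. No probe of a ligand or receptor passed in any of the 3 comparisons. Over all probes tested, 14.7% passed in IR-3W against normal tissue, 20.8% in IR-7W against normal tissue and 0.789% between the carcinoma groups. By direction, 9.3% passed as higher and 5.37% as lower in IR-3W against normal tissue, so 1 of 14 is near that background. In IR-7W against normal tissue 12.2% passed as higher and 8.63% as lower, beside 0 and 2 of the 14. Between the carcinoma groups 0.625% passed as higher in IR-3W and 0.164% as lower, beside 2 and 0 of the 14. The members' median log2 difference was 0.15 in IR-3W against normal tissue, -0.68 in IR-7W against normal tissue and 1.04 in IR-3W against IR-7W, while the medians over all probes were -0.01, -0.01 and -0.02. Both comparisons with normal tissue used the same 3 normal arrays. IR-7W arrays lay wholly above normal tissue for 0 of the 14 probes and 15.1% of all, and IR-3W arrays wholly below IR-7W for 0 of the 14 and 1.44% of all.

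**Figure D2:**
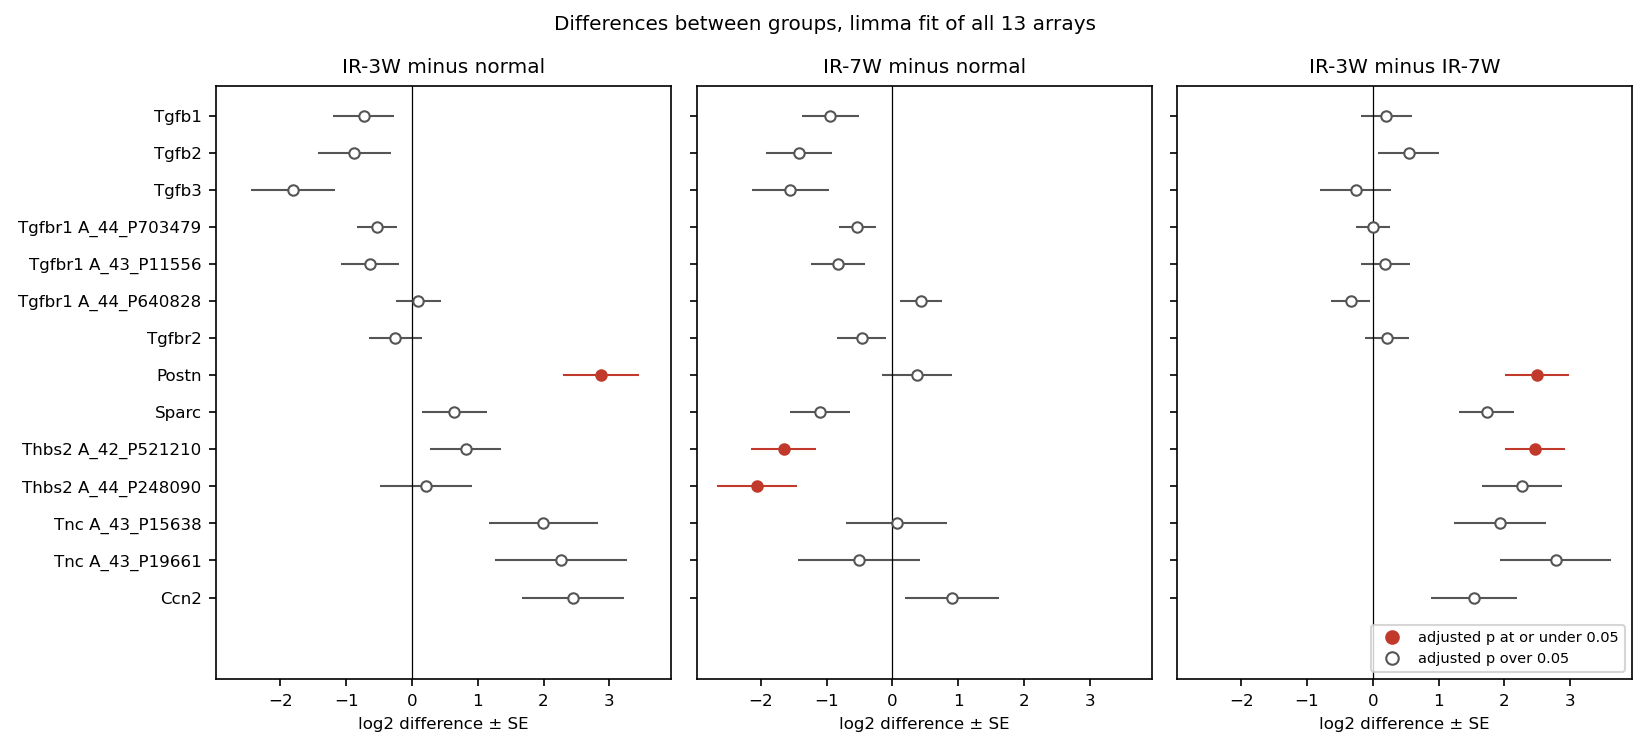
Log2 difference of each probe (horizontal axis, points with SE bars) for IR-3W against normal, for IR-7W against normal, and between both carcinoma groups as IR-3W minus IR-7W; filled red points passed an adjusted p of 0.05. Postn passed at 2.87 and 2.49 in the first and last panel, and both Thbs2 probes passed at -1.66 and -2.06 in the middle panel; the dimmest Tgfbr1 probe and the dimmer Tnc probe were below background in normal tissue, so their plotted differences from it are not measured sizes.

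Among the ligands, Tgfb3, the isoform known for its part in mammary involution, had levels of 2.95, 3.31, 2.83 and 4.26 in IR-3W. In IR-7W its levels ran from 2.44 to 5.01 with a median of 3.64, and normal tissue had 5.75, 5.76 and 3.93. IR-3W 4 and IR-7W 2 and 6 were above normal 3, so both carcinoma groups overlapped with normal tissue, and all other carcinoma arrays were below it. The differences from normal tissue, -1.81 ± 0.64 in IR-3W (adjusted p = 0.0758) and -1.55 ± 0.59 in IR-7W (adjusted p = 0.0811), missed the threshold in limma's fit. Without normal 3, the lowest of the normal arrays, they were -2.42 (adjusted p = 0.0348) and -2.16 (adjusted p = 0.0363). Without IR-7W 6, the highest of that group, the IR-7W difference was -1.83 (adjusted p = 0.0359). Over all alternatives of processing or samples, the difference passed in 4 of 19 in IR-3W (adjusted p up to 0.244). In IR-7W it passed in 3 of 21 (adjusted p up to 0.272). The carcinoma groups differed by -0.26 ± 0.54 (adjusted p = 0.894), with a 95% interval of -1.43 to 0.91.

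Tgfb2, a ligand with roles in development of the heart and of epithelia, had levels of -3.08, -2.59, -1.10 and -1.16 in IR-3W. Its IR-7W levels ran from -3.51 to -1.31 with a median of -2.55, and the normal arrays had -1.14, -0.96 and -1.22. All 6 IR-7W arrays were below all 3 normal arrays, which was also so for 13.5% of all probes, while IR-3W had 2 arrays inside the normal range and 2 below it. The difference was -1.42 ± 0.51 in IR-7W (adjusted p = 0.0641) and -0.87 ± 0.55 in IR-3W (adjusted p = 0.312). Without IR-7W 6 the IR-7W difference was -1.66 (adjusted p = 0.0283), and it passed in 7 of 21 alternatives (adjusted p up to 0.178). IR-3W minus IR-7W was 0.55 ± 0.46 (adjusted p = 0.69).

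Tgfb1, the isoform best known in immune and stromal cells, was at -0.83, -0.88, -2.14 and -0.05 in IR-3W. It ran from -1.79 to -0.55 in IR-7W (median -1.32), and was at 0.33, -0.23 and -0.82 in normal tissue. IR-3W 4 was above normal 2 and 3, and IR-7W 1 and 5 were above normal 3, so each carcinoma group overlapped with normal tissue. The differences were -0.74 ± 0.46 in IR-3W (adjusted p = 0.312) and -0.94 ± 0.43 in IR-7W (adjusted p = 0.137) against normal tissue, and 0.21 ± 0.39 between the carcinoma groups (adjusted p = 0.882). The probe has 10 spots per array, and 5 of its spots over all arrays were left out as outliers.

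The type I receptor gene Tgfbr1 was covered by 3 probes and the type II receptor gene Tgfbr2 by 1. On the brightest Tgfbr1 probe (A_44_P703479) the means were -2.25 ± 0.41 in IR-3W (SD, n = 4), -2.26 ± 0.38 in IR-7W (SD, n = 6) and -1.72 ± 0.31 in normal tissue (SD, n = 3). Its differences from normal tissue were -0.53 ± 0.31 in IR-3W (adjusted p = 0.27) and -0.53 ± 0.28 in IR-7W (adjusted p = 0.203). Between the carcinoma groups it was 0.00 ± 0.26 (adjusted p = 0.998), with a 95% interval of -0.55 to 0.56. A second probe (A_43_P11556) correlated with it at 0.655 over the 13 arrays and had differences of -0.64 ± 0.44 (adjusted p = 0.362) and -0.83 ± 0.41 (adjusted p = 0.172) from normal tissue in IR-3W and in IR-7W. The third (A_44_P640828) passed the background limit on 3 of 4 arrays in IR-3W, 6 of 6 in IR-7W and none in normal tissue, so no fold is given against normal tissue. It correlated at 0.151 and -0.18 with the other Tgfbr1 probes.

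Tgfbr2, which encodes the receptor that binds the ligand first, had levels of -2.80, -1.79, -2.57 and -1.86 in IR-3W. It ran from -3.31 to -1.89 in IR-7W with a median of -2.40, and was at -1.71, -1.67 and -2.63 in normal tissue. Normal 1 and 2 were above every carcinoma array, while normal 3 lay inside the ranges of both carcinoma groups. The differences were -0.25 ± 0.40 (adjusted p = 0.718) in IR-3W and -0.47 ± 0.37 (adjusted p = 0.402) in IR-7W against normal tissue. The carcinoma groups differed by 0.22 ± 0.34 (adjusted p = 0.852), with a 95% interval of -0.51 to 0.95.

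All differences that passed among the 14 probes were of Postn and Thbs2, both matricellular genes, while Sparc, Tnc and Ccn2 passed in no comparison. Promoters of the 10 genes are printed here where the 250 bases before the RefSeq start (assembly GRCr8) hold CAGAC or its reverse complement GTCTG. This is the short element that Smad3 and Smad4 bind, and the choice did not depend on which genes passed. The capitals mark each match. They are Postn at chr2:140677811-140678060 on the plus strand, and Sparc at chr10:40038817-40039066, Tnc at chr5:82476132-82476381 and Ccn2 at chr1:22624615-22624864, all 3 on the minus strand, each written 5′ to 3′.
Postn: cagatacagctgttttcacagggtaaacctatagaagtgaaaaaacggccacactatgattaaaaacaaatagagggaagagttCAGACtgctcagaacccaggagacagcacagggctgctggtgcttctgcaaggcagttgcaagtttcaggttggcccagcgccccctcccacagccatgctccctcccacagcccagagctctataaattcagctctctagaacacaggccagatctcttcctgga
Sparc: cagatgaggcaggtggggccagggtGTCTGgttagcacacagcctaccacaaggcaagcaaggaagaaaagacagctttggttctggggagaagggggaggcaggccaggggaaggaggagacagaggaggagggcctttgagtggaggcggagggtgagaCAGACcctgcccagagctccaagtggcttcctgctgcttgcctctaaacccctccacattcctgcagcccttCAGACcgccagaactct
Tnc: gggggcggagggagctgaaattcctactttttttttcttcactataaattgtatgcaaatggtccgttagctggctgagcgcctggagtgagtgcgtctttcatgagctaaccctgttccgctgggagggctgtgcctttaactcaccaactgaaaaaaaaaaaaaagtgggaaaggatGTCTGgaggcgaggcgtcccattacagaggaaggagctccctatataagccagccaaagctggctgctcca
Ccn2: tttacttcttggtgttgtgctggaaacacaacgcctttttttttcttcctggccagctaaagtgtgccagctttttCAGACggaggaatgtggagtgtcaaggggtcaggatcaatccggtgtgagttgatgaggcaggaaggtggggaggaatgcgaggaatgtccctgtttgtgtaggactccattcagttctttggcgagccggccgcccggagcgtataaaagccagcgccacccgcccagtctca
Sparc held 3 matches and the other 3 promoters 1 each. A promoter was found for 9 of the 10 genes, all except Thbs2. The element was found on either strand in 4 of the 9 and in 42.9% of 33469 rat promoters over the same window, and in none of the 5 ligand and receptor promoters. GGAATG or its reverse complement CATTCC, the element of the TEAD factors, stood 3 times in Ccn2 and once in Sparc, in 2 of the 9 promoters and in 12.1% of all. TGANTCA, the element of AP-1, stood in 0 of the 9 and in 6.34% of all. A match describes these letters only.

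Postn encodes periostin, a matricellular protein of fibroblasts that binds collagen and integrins. Its levels were 3.98, 5.47, 5.49 and 6.01 in IR-3W. They ran from 2.10 to 4.15 in IR-7W with a median of 2.41, and were 3.07, 2.38 and 1.64 in normal tissue. All 4 IR-3W arrays were above all 3 normal arrays, which was also so for 13.3% of all probes. IR-7W 1, at 4.15, was above the lowest IR-3W array, and IR-7W overlapped with normal tissue, with normal 3 below every IR-7W array. Postn was higher by 2.87 ± 0.58 in IR-3W than in normal tissue (7.33-fold, adjusted p = 0.00533). In IR-7W the difference from normal tissue was 0.38 ± 0.53 (adjusted p = 0.655), with a 95% interval of -0.77 to 1.53. IR-3W exceeded IR-7W by 2.49 ± 0.49 (5.63-fold, adjusted p = 0.0391). Within the slide that held both carcinoma groups, IR-3W 1 and 2 had 3.98 and 5.47, against 4.15 and 2.28 in IR-7W 1 and 5. The difference was 1.51 (adjusted p = 0.9999 in limma's fit of these arrays). No probe at all passed in that fit, so its p does not tell Postn from other probes. The IR-3W over IR-7W call was lost without IR-3W 2, 3 or 4 or without any of IR-7W 2 to 6, with adjusted p from 0.0602 to 0.145 and differences from 2.24 to 2.60.

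Thbs2 encodes thrombospondin 2, which binds matrix proteases and limits vessel growth. On its brighter probe (A_42_P521210) the levels were 3.98, 4.21, 2.35 and 5.06 in IR-3W. They ran from 0.84 to 2.23 in IR-7W with a median of 1.24, and were 3.41, 2.75 and 3.09 in normal tissue. Every IR-7W array was below every array of both other groups, and IR-3W spread to both sides of normal tissue. A group wholly below normal tissue was seen for 13.5% of all probes in IR-7W, and a group wholly above IR-7W for 1.49% of all probes in IR-3W. Thbs2 was lower by 1.66 ± 0.50 in IR-7W than in normal tissue (3.15-fold, a log2 difference of -1.66, adjusted p = 0.0335). IR-3W exceeded IR-7W by 2.47 ± 0.46 (5.55-fold, adjusted p = 0.0341), and by 2.56 within the shared slide (adjusted p = 0.9999). No probe at all passed within that slide, so this p does not tell Thbs2 from other probes. IR-3W minus normal was 0.82 ± 0.54 (adjusted p = 0.34), and 1.33 (adjusted p = 0.045) without IR-3W 3, the lowest array of its group. That difference passed in 2 of 19 alternatives (adjusted p up to 0.626).

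The second Thbs2 probe (A_44_P248090) correlated with the first at 0.963 over the 12 arrays that both measured. IR-3W 1 has no value for it, since its spot was marked an outlier, and the other IR-3W arrays had 2.87, 0.54 and 3.55. It ran from -0.50 to 1.04 in IR-7W with a median of -0.21, and was at 3.02, 1.82 and 1.50 in normal tissue. IR-7W was again wholly below normal tissue, while IR-3W 3 lay inside the IR-7W range. Its difference was -2.06 ± 0.61 in IR-7W against normal tissue (adjusted p = 0.0325) and 2.27 ± 0.61 in IR-3W against IR-7W (adjusted p = 0.123), on 3 IR-3W arrays. IR-3W minus normal was 0.21 ± 0.70 on this probe (adjusted p = 0.876). Against normal tissue, the call on the first probe was lost without any normal array or without IR-7W 2, 3, 5 or 6 (adjusted p from 0.055 to 0.128, differences from -1.82 to -1.49). On the second it was lost without normal 1 or 2 or the same 4 IR-7W arrays (adjusted p from 0.0528 to 0.155, differences from -2.20 to -1.60). The IR-3W over IR-7W call of the first probe was lost without IR-3W 2 or 4 or the same 4 IR-7W arrays (adjusted p from 0.0654 to 0.12, differences from 2.09 to 2.44).

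Ccn2 encodes connective tissue growth factor, a secreted protein induced by TGF-beta and by the YAP and TEAD factors. Its levels were 4.19, 5.71, 2.92 and 6.46 in IR-3W. They ran from 1.57 to 3.93 in IR-7W with a median of 3.57, and were 2.48, 3.098 and 1.55 in normal tissue. IR-3W 3 lay inside the normal range and the other 3 IR-3W arrays were above every IR-7W and normal array. The difference of 2.44 ± 0.78 between IR-3W and normal tissue missed the threshold (adjusted p = 0.0522), and without IR-3W 3 it was 3.07 (adjusted p = 0.00972). That difference passed in 7 of 19 alternatives (adjusted p up to 0.166). IR-7W minus normal was 0.91 ± 0.72 (adjusted p = 0.404). IR-3W minus IR-7W was 1.54 ± 0.66 (adjusted p = 0.362) and 2.41 within the shared slide.

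Sparc encodes osteonectin, a collagen-binding protein of stroma. It had levels of 5.50, 6.55, 7.71 and 7.47 in IR-3W. They ran from 4.50 to 6.00 in IR-7W with a median of 4.95, and were 6.19, 6.34 and 5.99 in normal tissue. IR-3W 1 was below all 3 normal arrays and the other IR-3W arrays were above them, while IR-7W 1 was level with the lowest normal array and the other IR-7W arrays were below all of them. The differences were 0.64 ± 0.49 in IR-3W (adjusted p = 0.417) and -1.10 ± 0.46 in IR-7W (adjusted p = 0.108) against normal tissue. IR-3W minus IR-7W was 1.74 ± 0.42 (adjusted p = 0.0796). It was 2.17 without IR-3W 1 (adjusted p = 0.0103) and 0.71 within the shared slide, and it passed in 3 of 24 alternatives.

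Tnc encodes tenascin C, which is laid down in wounds and tumour stroma. On its brighter probe (A_43_P15638) the levels were 0.05, 2.68, 0.45 and 3.70 in IR-3W. They ran from -1.17 to 1.31 in IR-7W with a median of -0.64, and were 0.05, -0.03 and -0.85 in normal tissue. IR-3W 2 and 4 were above every other array, and IR-3W 1 and 3 lay inside the IR-7W range. The differences were 1.99 ± 0.83 in IR-3W (adjusted p = 0.126) and 0.06 ± 0.77 in IR-7W (adjusted p = 0.965) against normal tissue, and 1.93 ± 0.70 between the carcinoma groups (adjusted p = 0.266). Within the shared slide the carcinoma groups differed by 1.08, and IR-3W 1, at 0.05, was below IR-7W 1, at 1.31. The dimmer probe (A_43_P19661) correlated with it at 0.972. It passed the background limit on 4 of 4 arrays in IR-3W, 3 of 6 in IR-7W and none in normal tissue. On this probe the measured means were -2.68 in IR-3W and -4.95 in normal tissue, and the difference did not pass (adjusted p = 0.15). The IR-3W mean was 1.89-fold above a reference level for normal tissue. That level averages, over the normal arrays, the higher of the probe's own signal and the lowest signal called well above background. The 1.89-fold leaves out the spread among IR-3W arrays (SD 1.90), so it is not a lower limit for the group difference. IR-3W 1, at -4.79, was below the signals of normal 1 and 2, at -4.13 and -4.71. IR-3W minus IR-7W was 2.78 ± 0.85 on the measured signals (adjusted p = 0.174) and 1.51 within the shared slide, but 3 of the 6 IR-7W arrays were not above background on this probe, so the size of that difference is not settled.

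**Figure D3:**
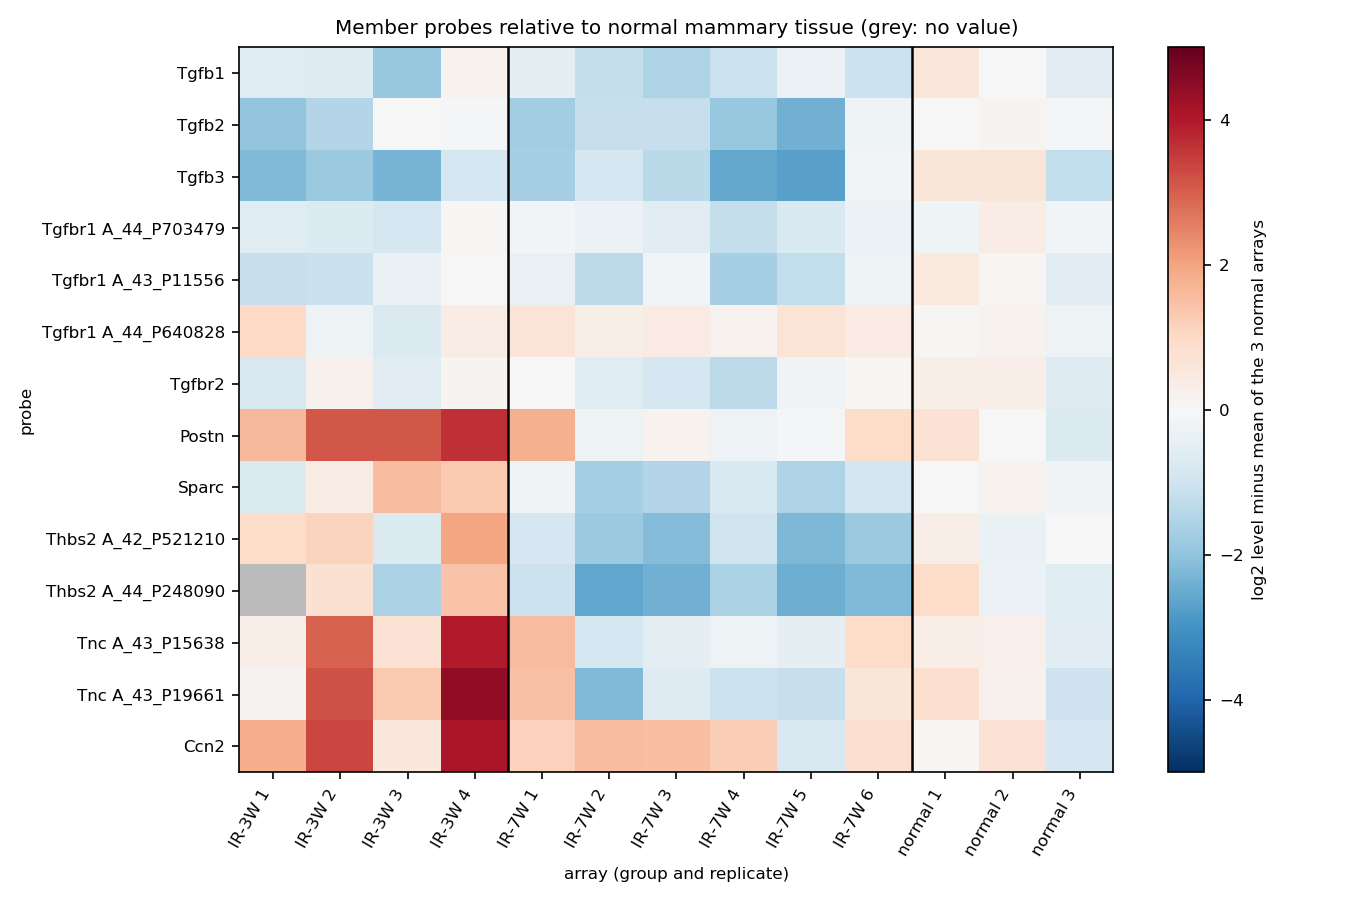
Log2 level of each probe (rows) on each array (columns, by group and replicate) minus the mean of the 3 normal arrays; red is above that mean, blue below, grey without a value. Among the matricellular genes the IR-3W columns are mostly red and those of Thbs2 in IR-7W are blue.

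The pattern of each gene over the carcinomas was set against those of the others. Across the 10 carcinoma arrays, Postn correlated with Sparc at 0.929, with Tnc at 0.87, with Thbs2 at 0.802 and with Ccn2 at 0.604 (brightest probe of each, Pearson r). Tgfb1 correlated with Tgfb2 at -0.275 and with Tgfb3 at 0.028, and Tgfb2 with Tgfb3 at 0.62. Postn correlated with the ligands at 0.262, 0.52 and 0.069 for Tgfb1, Tgfb2 and Tgfb3. These arrays span both carcinoma groups and share array scaling, so a group difference adds to each r. Among 10276 genes, those most like Postn over these arrays were Col6a2 (0.984) and Col5a1 (0.976), collagen genes. Those most like Sparc were Aoc3 and She (both 0.962). Ccn2 was most like Pcdhb20 (0.968) and Ltbp1 (0.967), and Thbs2 most like Cldn9 (0.963) and Fibin (0.961). Tnc was most like C1qtnf5 (0.961) and Rem1 (0.956), and Tgfb3 most like Tns4 (0.961) and Amotl2 (0.941).

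Markers of other cell types also differed between the groups. The summed level of the 9 of 10 fibroblast markers measured (linear signal over the array's 75th percentile) was 452.7, 594.7, 1468 and 739.4 in IR-3W. It was 125.2 to 286.6 in IR-7W and 215.2 to 269.8 in normal tissue, so every IR-3W array lay above both other groups. In IR-3W the collagen genes Col3a1, Col1a2 and Col1a1 weigh most in this linear sum, with mean log2 levels of 8.31, 7.29 and 7.19. IR-3W 3, with the highest sum, had the lowest Thbs2 and Ccn2 levels of its group but the highest Sparc level (7.71). Its Postn level, 5.49, was below only that of IR-3W 4, and its Tnc level (A_43_P15638), 0.45, was above only that of IR-3W 1. Of the 9, 4 passed as higher in IR-3W than in normal tissue (Col1a1, Col1a2, Lum and Thy1), 3 passed as lower in IR-7W than in normal tissue (Col3a1, Pdgfra and Dcn), and 6 passed as higher in IR-3W than in IR-7W (Col3a1, Pdgfra, Pdgfrb, Dcn, Lum and Fap). Thy1 did not pass the background limit in normal tissue. The 5 fibroblast markers not passing in IR-3W against normal tissue differed by 1.55 (Fap), 1.34 (Col3a1), 0.74 (Pdgfrb), 0.05 (Dcn) and -0.20 (Pdgfra). Adipocyte markers were lower in both carcinoma groups, with 7 of 7 passing in each and sums of 7.781 to 84.35 in IR-3W, 7.871 to 11.79 in IR-7W and 262.1 to 309.5 in normal tissue. Of 8 endothelial markers, 2 passed as lower in IR-3W and 7 in IR-7W than in normal tissue, with sums of 11.06 to 82.53 in IR-3W, 7.774 to 13.33 in IR-7W and 33.93 to 47.72 in normal tissue. Of 6 myoepithelial markers, 3 passed as lower in IR-3W than in normal tissue (Cnn1 by a log2 difference of -2.35, Myh11 by -2.95 and Oxtr by -3.09). In IR-7W against normal tissue Oxtr alone of the 6 passed (-2.39), and Cnn1 was lower in IR-3W than in IR-7W (-2.27, adjusted p = 0.0389). Their sums were 26.45 to 133.9 in IR-3W, 25.46 to 102.8 in IR-7W and 60.34 to 96.94 in normal tissue. Of 6 pericyte and vascular smooth muscle markers, Notch3 was higher in both carcinoma groups, by 3.79 in IR-3W, where 1 array has no value, and by 3.55 in IR-7W, while Cspg4 (-2.36) and Mcam (-1.01) were lower in IR-7W than in normal tissue. In bulk tissue, fewer cells of a type and less RNA per cell cannot be told apart. The part of these cell types in the differences of Postn, Thbs2 and the ligands was not tested.

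The rest of the pathway was described by 70 other genes in 5 lists, of which 50 were measured well enough to test, each by its brightest probe. In IR-3W against normal tissue 4 were higher and 1 lower, in IR-7W against normal tissue 1 was higher and 7 lower, and in IR-3W against IR-7W 3 were higher and 0 lower. Over all genes counted this way the background was 9.31% higher and 5.34% lower in IR-3W, 12.1% and 8.82% in IR-7W, and 0.639% and 0.163% between the carcinoma groups. The median differences of the 50 were 0.04, -0.23 and 0.31 in the same 3 comparisons.

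Of 10 tested genes that store or activate latent TGF-beta, Nrros, which holds latent TGF-beta on myeloid cells, was lower in both carcinoma groups. Its difference from normal tissue was -1.62 ± 0.39 in IR-3W (adjusted p = 0.0152, and 0.0759 without normal 1) and -2.25 ± 0.36 in IR-7W (adjusted p = 0.00095). The summed level of 8 macrophage and myeloid markers was 42.4 to 106.7 in IR-3W, 22.42 to 52.89 in IR-7W and 93.78 to 128.1 in normal tissue, and its part in this was not tested. Of the 8, 1 passed as lower in IR-3W and 3 in IR-7W than in normal tissue, and 0 as higher. Ltbp2, a relative of the latent TGF-beta binding proteins that sits on elastic fibres, was higher by 2.95 ± 0.89 in IR-3W (adjusted p = 0.0431) and by 2.65 ± 0.83 in IR-7W (adjusted p = 0.038). Those calls were lost without any single normal array (adjusted p from 0.0686 to 0.131), without IR-3W 1, 2 or 4 (0.0537 to 0.0977), or without IR-7W 2, 3, 4 or 6 (0.0519 to 0.0661), and under normexp background correction, where the differences were 1.28 (0.352) and 0.89 (0.216). Ltbp1, which anchors the latent ligand in the matrix, was lower by a log2 difference of -1.57 ± 0.47 in IR-7W (adjusted p = 0.0322), a call lost without any single normal array or IR-7W 4 or 5 (0.0524 to 0.093).

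Of 11 co-receptors and other receptors of the family, 2 passed, both lower in IR-7W than in normal tissue and both known from endothelium. Acvrl1, the type I receptor ALK1, differed by -1.91 ± 0.38 (adjusted p = 0.00394). Eng, the co-receptor endoglin, differed by -2.33 ± 0.54 (adjusted p = 0.00947, and 0.0642 and 0.0521 without normal 1 and 2). In the same comparison 7 of 8 endothelial markers were lower, as above, and the part of endothelial cells in the Acvrl1 and Eng differences was not tested. None of the 10 tested Smad and feedback genes passed in any comparison.

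Of 8 other genes known as TGF-beta-induced, Fn1 (fibronectin) was higher in IR-3W than in normal tissue by 2.22 ± 0.52 (adjusted p = 0.0128) and than in IR-7W by 2.25 ± 0.44 (adjusted p = 0.0391). Id1, an inhibitor of helix-loop-helix factors that is best known as a target of bone morphogenetic proteins, was higher by 1.79 ± 0.40 (adjusted p = 0.00918) and 1.81 ± 0.33 (adjusted p = 0.0341) in those comparisons. Timp1, an inhibitor of matrix proteases, was lower in IR-7W than in normal tissue by a log2 difference of -2.22 ± 0.47 (adjusted p = 0.00532), and higher in IR-3W than in IR-7W by 2.19 ± 0.43 (adjusted p = 0.0389). Against normal tissue the call of Fn1 was lost without normal 1 or 2 (0.0588 and 0.0543) and that of Id1 without normal 2 (0.055). Between the carcinoma groups each of the 3 calls was lost without IR-3W 2 or 4 or IR-7W 2, 3, 4 or 5, and some without IR-3W 3 or IR-7W 6 (adjusted p from 0.0532 to 0.142). Within the shared slide the differences were 1.81 for Fn1, 2.08 for Id1 and 2.00 for Timp1.

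Of 13 other matricellular genes, Ccn4, a relative of Ccn2 known as a Wnt target, was higher by 2.92 ± 0.69 in IR-3W than in normal tissue (adjusted p = 0.0134, and 0.0612 without normal 3). In IR-7W against normal tissue Sparcl1, a relative of Sparc, differed by -1.97 ± 0.29 (adjusted p = 0.000553) and Fbln5, a protein of elastic fibres, by -2.13 ± 0.47 (adjusted p = 0.0074, and 0.0519 without normal 1). None of the 13 passed between the carcinoma groups. In a fit of IR-3W and normal arrays alone, the calls of Ltbp2, Nrros, Fn1 and Ccn4 were lost (adjusted p from 0.0531 to 0.129).

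**Figure D4:**
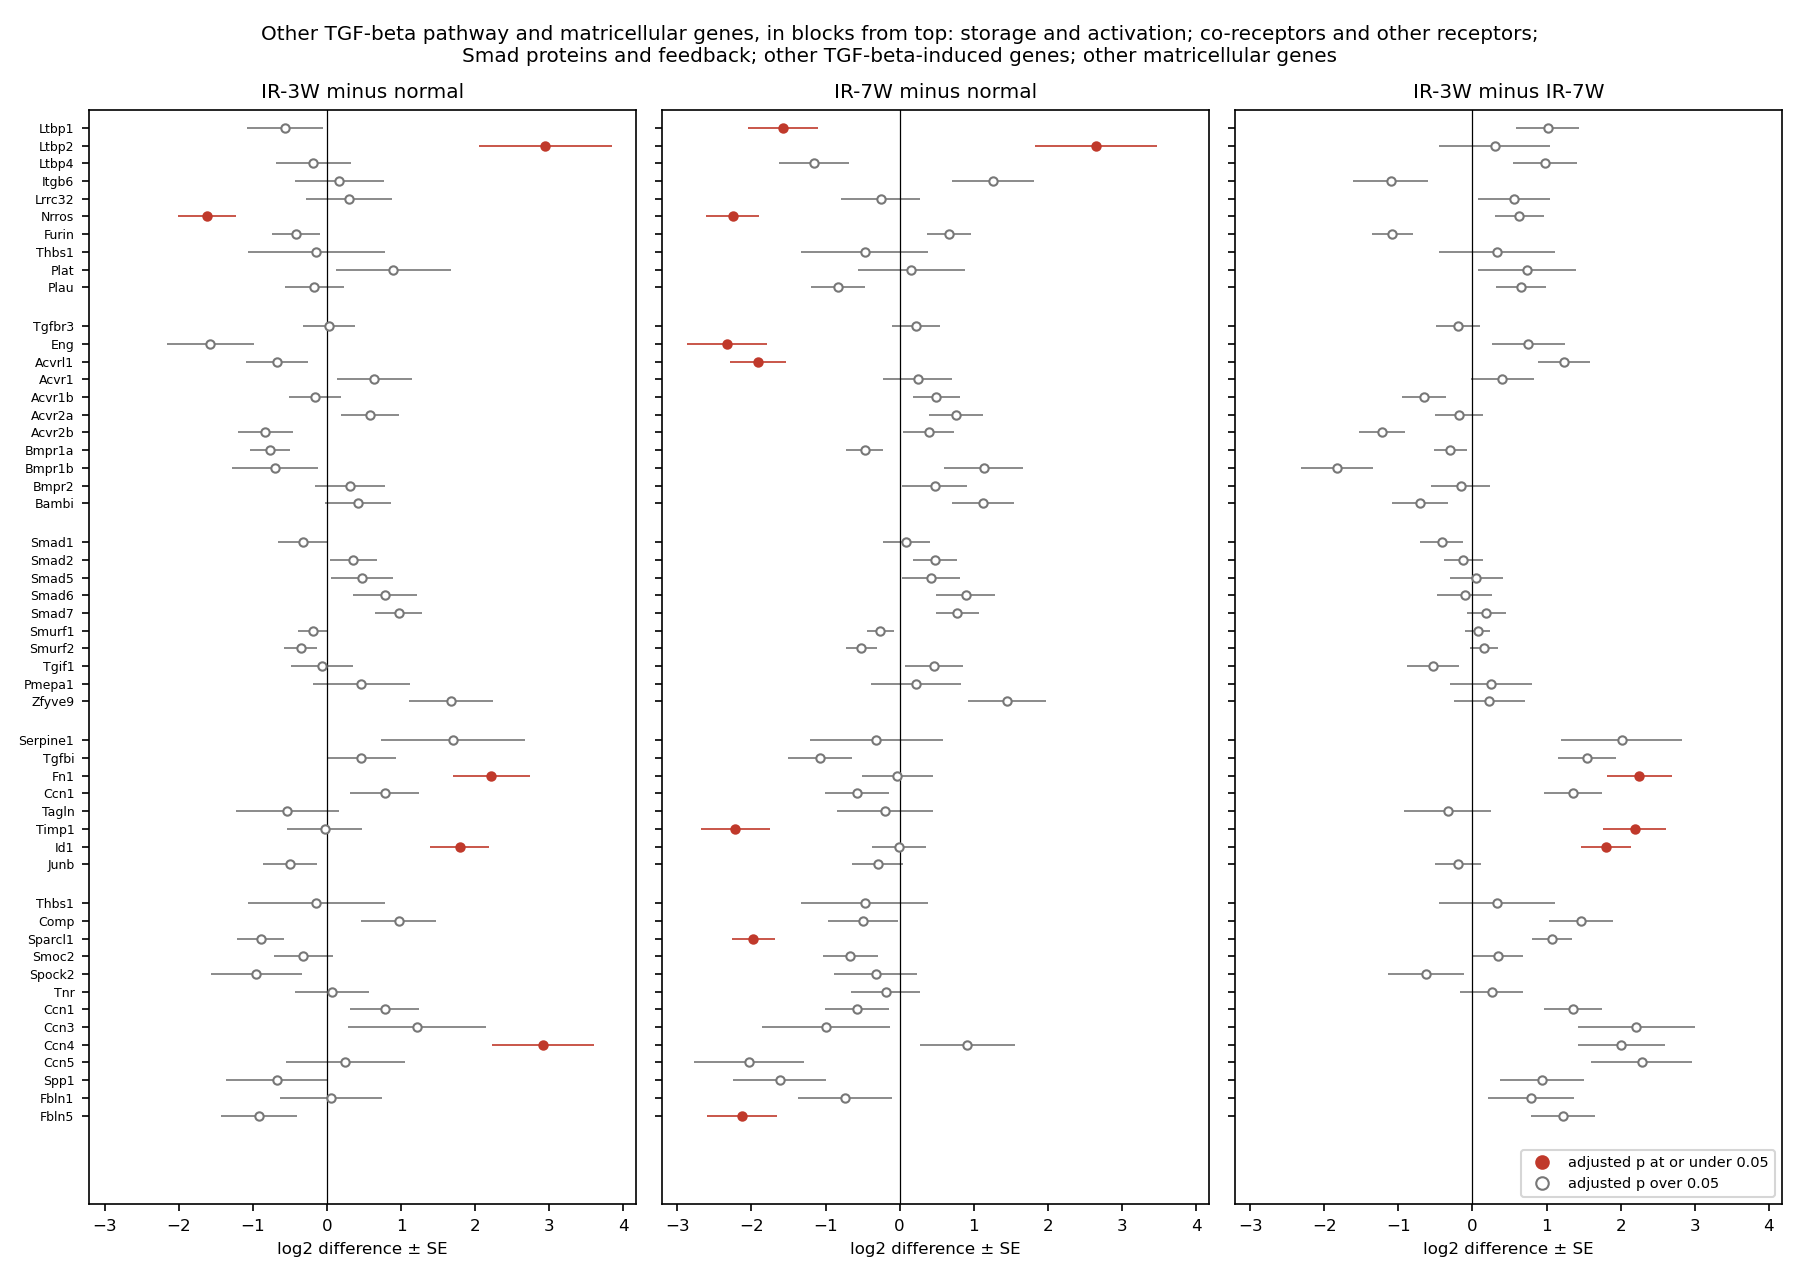
Log2 difference (horizontal axis, points with SE bars) of the 50 other genes tested, 2 of them drawn in 2 blocks, with panels as in the plot of the 14 probes; filled red points passed an adjusted p of 0.05. Fn1 and Id1 pass in the first and last panel, Timp1 in the middle and last, and no gene of the Smad block passes.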

How the data were processed

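Arrays carried 1 colour (Cy3), and what the labels call channel 2 is an average over the 3 normal samples, not a second RNA on the array. The authors' deposited intensity per spot is the processed signal of Agilent Feature Extraction 10.7.3.1, per the file headers and the submitters' processing notes. Log2 values also came in a deposited summary file, used only as an alternative. It matched the main log2 levels less the mean of normal tissue: with a constant offset per array of -0.0335 to 0.0125, 99.5 to 99.6% of its values lay within 0.01. Its column medians were -0.202 to 0.055, 29.5 to 52.2% of entries were blank, and what made the offset and the blanks is unknown.

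The 1639 control spots were left out, and each array's 75th percentile was taken over all other spots, outliers included. Spots marked as outliers were then left out and log2 of the processed signal was averaged over the spots of a probe. From this the array's percentile, on the log2 scale, was subtracted. Of 41012 probes, 29277 well above background on at least 3 arrays were kept. Accessions without versions were matched to RefSeq symbols (GRCr8), giving 16815 probes a symbol, and 24197 had none. The array design uses rn4, so probe coordinates are not given. No probe of the 10 genes was saturated on any array, and 8 of their spots were outliers. All arrays entered a single limma 3.58.1 fit (lmFit and eBayes, R 4.3.3, data.table, version 1.17.8), probe by probe. Lists counted a gene by its brightest probe. Precision is limited by how many arrays there were.

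The genes named are all probes of the 10 genes, pathway genes of the lists that passed, and some of the marker genes. Also named are the 2 genes most correlated with each of the 10, of which the text gives those of 6. The members, the lists and the tests were chosen with earlier results of these data known. Alternatives covered background correction, scaling, the filter on dim probes, probes against genes, the samples in the fit, array weights, slide, replicate number, the deposited log2 values and leaving out each array. Same-numbered arrays of different groups deviated together at r of -0.223 to 0.079, and nothing in the labels ties them, so numbers were not taken as pairs. On simulated data with 29277 probes, log2 changes of 1, 2, 3 and 4 were recovered at 8, 60, 84 and 82% when set in IR-3W relative to normal tissue, at 10, 60, 76 and 86% when set in IR-7W relative to normal tissue, and at 24, 66, 76 and 96% between the carcinoma groups. Only 50 probes were changed at each size, while 4295 and 6097 probes passed against normal tissue in the data. The Benjamini-Hochberg cut depends on that share, so recovery against normal tissue does not carry over to these data.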

Additional observations from a re-analysis of the deposited data

Results flagged for a closer look

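Ccn2 in IR-7W 5 stood apart from its group, with a level of 1.57 on the log2 scale where the nearest of the other 5 IR-7W arrays had 3.19. The gap was 0.688 of the group's range, above Dixon's critical value of 0.625. It was the only such array among the probe and carcinoma group combinations tested. Thbs2 (A_44_P248090) in IR-3W had too few values for the test. Chance gives about 1 in 20 per combination, so 1 such array is no more than chance gives.

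The carcinoma groups differed from each other, and so in their difference from normal tissue, on 2 probes by limma's test of IR-3W minus IR-7W. Postn differed by 2.49, with differences from normal tissue of 2.87 in IR-3W and 0.38 in IR-7W. The brighter Thbs2 probe (A_42_P521210) differed by 2.47, with differences from normal tissue of 0.82 in IR-3W and -1.66 in IR-7W. Both calls depend on single arrays, as given with the values of each gene.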

How the results depend on the processing

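The call of Postn as higher in IR-3W than in normal tissue held in 18 of 19 alternatives, with differences of 2.51 to 3.29. The call of Thbs2 as lower in IR-7W held in 11 of 21 (A_42_P521210) and 12 of 19 (A_44_P248090). The calls of IR-3W over IR-7W held in 9 of 24 for Postn and 13 of 24 for Thbs2 (A_42_P521210). With 3 to 6 arrays per group, log2 changes of 1 were recovered at 8 to 24% in simulated data, where far fewer probes were changed than passed against normal tissue. The median over all probes moved to -0.21, -0.54 and 0.37 (IR-3W against normal, IR-7W against normal, IR-3W against IR-7W) under normexp, to 0.10 and 0.15 against normal with the 75th percentile over probes above background on all arrays, to -0.36 and -0.37 with no filter, and to -0.14 and -0.13 with probes above background on all 13 arrays.

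Probes passing numbered 4295 (IR-3W against normal), 6097 (IR-7W against normal) and 231 (IR-3W against IR-7W). In that order they were 1331, 14711 and 8701 under normexp on the median spot signal. The median was chosen after seeing the data, since the planned mean spot signal was not available. In the same order they were 12264, 15316 and 126 with no filter, and 11390, 12252 and 2087 with array weights. The 75th percentile over probes above background on all arrays gave 121 for IR-3W against IR-7W and the deposited log2 values gave 152 there. The filter on all 13 arrays gave 3902 for IR-7W against normal. Fits of only the 2 groups gave 2011 (IR-3W against normal) and 32 (IR-3W against IR-7W). Slide as a random block (correlation -0.0581) gave 390 for IR-3W against IR-7W. Slide as a fixed block, and the arrays of the shared slide alone, gave 0 there. Leaving out each array gave 2419 to 5735, 3531 to 5571 and 33 to 674. Probes passing split into 2724 higher and 1571 lower, 3571 and 2526, and 183 and 48. Under normexp the splits were 879 and 452, 2371 and 12340, and 7910 and 791. With no filter they were 3192 and 9072 and 4025 and 11291 against normal, while requiring signal above background on all 13 arrays gave 1372 and 1497, then 1765 and 2137. The cause of these changes was not tested. Keeping outlier spots, chosen after seeing the data, gave 4279, 6068 and 232.

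With the replicate block, limma gave 1874 and 2668 probes against normal and 0 between the carcinoma groups. Postn in IR-3W against normal then had an adjusted p of 0.0558, Thbs2 (A_42_P521210) in IR-7W against normal 0.0506, and Postn and Thbs2 between the carcinoma groups 0.276 and 0.159. No same-numbered pair of arrays correlated above 0.1, so this block reflects shared numbers only.

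Signs turned in 33 combinations of a probe, a comparison and an alternative, none of which had passed the threshold in the fit reported. Under normexp the Tgfbr1 probe A_44_P640828 gave -0.29, -1.01 and 0.71 and Tnc (A_43_P15638) in IR-7W against normal -0.054, where the replicate block gave -0.30. The deposited table gave -0.12 for A_44_P640828 in IR-3W against normal. For IR-3W against IR-7W, Tgfbr1 (A_44_P703479) gave -0.0038 under quantile normalization and -0.042 with the 75th percentile over probes above background on all arrays, and Tgfb3 gave 0.081 with array weights. Slide as a fixed block and the shared slide alone both gave -0.24 for Tgfb1, 0.16 for Tgfb3, -0.19 for Tgfbr1 (A_44_P703479), -0.32 for A_43_P11556 and -0.22 for Tgfbr2. Leaving out each array gave -0.21 to 0.37 for A_44_P640828 and -0.41 to 1.10 for Thbs2 (A_44_P248090) in IR-3W against normal, and -0.24 to 0.25 for Tnc (A_43_P15638) in IR-7W against normal. For IR-3W against IR-7W it gave -0.10 to 0.59 for Tgfb1, -0.57 to 0.020 for Tgfb3, -0.19 to 0.12 for A_44_P703479 and -0.030 to 0.36 for A_43_P11556.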
